A study of Mus musculus with 12 samples.

Results

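The 10 genes described here regulate the cyclin-dependent kinases CDK1 and CDK2, which drive cells through DNA replication and division. They are the kinases Cdk1 and Cdk2, the kinase-binding subunit Cks2, the activating phosphatases Cdc25a, Cdc25b and Cdc25c, the inhibitory kinases Wee1 and Pkmyt1, and the Speedy genes Spdya and Spdye4a. They were chosen by name in a data set of 19946 measured genes, with earlier results of these data known. Spdye4a was instead selected on its high level in stages XII-I on these same arrays and is therefore described with no test. Of the 10 genes, 9 had a probe set of their own and 8 were tested. The only probe set of Spdya is annotated to Mettl4-ps1 as well, so no value is given for Spdya. Gene expression was measured in whole testes of adult male mice of the mixed background 129/C57BL6 on 12 Affymetrix Mouse Gene 1.0 ST arrays, with 2 samples in each of 6 stage groups. In the order of the cycle these were XII-I, then II-IV and IV-VI, then VII, and last VIII-IX and IX-XI. Mice of all 6 groups had received WIN 18,446, an inhibitor of retinoic acid synthesis, at 100 ug per g on 7 days from 2 to 8 days postpartum, followed on day 9 by 200 ug of retinoic acid and by a recovery of 43 to 49 days. The stages were assigned by testis morphology, and untreated testes were not analysed here. The labels name no animals, so the samples may or may not be separate ones; a p-value therefore reflects the spread between these samples only, and that spread may be technical.

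A cyclin-dependent kinase is inactive until a cyclin or a Speedy protein binds it, and WEE1 and PKMYT1 then hold it inactive by phosphorylating its ATP-binding loop. The CDC25 phosphatases remove these phosphates, and the small CKS proteins help the active kinase to reach its substrates. In the seminiferous epithelium of the mouse, spermatocytes enter meiosis around stage VIII and complete both meiotic divisions at stage XII. In mice CDK1 drives the meiotic divisions, whereas CDK2 bound to Speedy A acts at the telomeres in meiotic prophase and is needed for chromosome pairing.

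The starts of the genes are shown because promoters of cell cycle genes carry short elements that tie transcription to the cycle. The set of RefSeq promoter windows used here (GRCm38.p6) runs from 250 bases before to 50 bases after the start. It covered 7 of the 10 genes, in 8 entries, and held no window for Cdc25c, Wee1 and Pkmyt1. The windows were searched on both strands for TTTGAA (the CHR element), CCAAT, the E2F sites TTTGGCGC and TTTCGCGC, and the CRE TGACGTCA, and no matches overlapped one another. Shown first are the promoters of Cdk1 (chr10:69352863-69353162, minus strand) and Cdc25a (chr9:109875329-109875628, plus strand), the measured genes that were highest in XII-I and passed a test there. The promoter of Cdk2 (chr10:128705002-128705301, minus strand), highest in VIII-IX, and both starts of Spdye4a (chr5:143226841-143227140 and chr5:143225833-143226132, minus strand) follow. Each runs 5′ to 3′ along its gene, and capitals mark the matches, so that a CCAAT on the other strand reads ATTGG and a CHR on the other strand reads TTCAAA.
Cdk1: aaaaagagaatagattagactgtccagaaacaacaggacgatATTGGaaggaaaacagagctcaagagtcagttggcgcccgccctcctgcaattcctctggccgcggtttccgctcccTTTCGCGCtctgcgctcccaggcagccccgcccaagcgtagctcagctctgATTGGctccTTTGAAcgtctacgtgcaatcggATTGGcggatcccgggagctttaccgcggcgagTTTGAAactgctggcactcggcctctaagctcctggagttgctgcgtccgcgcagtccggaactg
Cdc25a: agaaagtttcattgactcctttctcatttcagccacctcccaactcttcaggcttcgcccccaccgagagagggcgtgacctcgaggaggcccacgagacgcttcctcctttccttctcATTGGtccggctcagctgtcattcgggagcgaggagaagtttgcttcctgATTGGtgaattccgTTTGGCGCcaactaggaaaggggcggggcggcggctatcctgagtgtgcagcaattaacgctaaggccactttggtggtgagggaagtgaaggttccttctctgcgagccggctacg
Cdk2: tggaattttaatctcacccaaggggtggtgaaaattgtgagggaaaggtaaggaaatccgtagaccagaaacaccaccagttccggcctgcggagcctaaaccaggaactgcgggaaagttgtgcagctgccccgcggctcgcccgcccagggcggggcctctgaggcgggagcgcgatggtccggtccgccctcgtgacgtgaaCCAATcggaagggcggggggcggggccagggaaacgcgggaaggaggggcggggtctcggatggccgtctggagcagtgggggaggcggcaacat
Spdye4a, entry 1: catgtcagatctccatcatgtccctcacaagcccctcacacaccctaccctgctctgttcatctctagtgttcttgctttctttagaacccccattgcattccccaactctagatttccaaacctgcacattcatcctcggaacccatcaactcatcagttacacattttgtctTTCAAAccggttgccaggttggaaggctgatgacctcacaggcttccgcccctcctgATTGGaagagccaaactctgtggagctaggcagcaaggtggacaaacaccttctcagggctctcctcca
Spdye4a, entry 2: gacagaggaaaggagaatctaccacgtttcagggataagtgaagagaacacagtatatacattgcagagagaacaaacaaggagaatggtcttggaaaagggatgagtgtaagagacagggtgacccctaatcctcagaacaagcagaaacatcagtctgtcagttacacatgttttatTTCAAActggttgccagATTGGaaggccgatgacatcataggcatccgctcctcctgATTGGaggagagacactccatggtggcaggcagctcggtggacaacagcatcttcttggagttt

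The Cdk1 window held 2 CHR matches, at -71 to -66 and -15 to -10 from the start, together with 3 CCAAT matches and 1 E2F match. Each Spdye4a window held 1 CHR match, at -76 to -71 in entry 1 and -71 to -66 in entry 2, with 1 and 2 CCAAT matches. Cdc25a had 1 E2F and 2 CCAAT matches, and Cdk2 had 1 CCAAT match. Of the windows not shown, Cdc25b and Spdya each held 1 CCAAT match and Cks2 held 4. No CRE was found in these 8 windows. Among 32851 promoter windows of the same length, 17.9% held the CHR letters, 37.4% CCAAT, 0.813% an E2F site and 1.79% a CRE. CCAAT and CHR matches are thus common among promoters. Each of the 8 windows held CCAAT, and whether this exceeds the share of all windows was not tested. A match is a run of letters and does not show that a factor binds there.

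Levels below are log2 intensities, and those of single genes are given for sample 1 and then sample 2 of each group. The arrays were normalized to nearly the same distribution, so every difference is relative to the other transcripts, and in a whole testis fewer cells of a type and less RNA per cell cannot be told apart. Array medians lay between 296.9 and 309.1 before the log2 step, and with 12 arrays the precision is limited by their number. Samples of a group correlated at 0.987 to 0.995 across genes, but 9 of the 12 arrays lay nearest to an array of another group. The mean level of 11 spermatocyte markers lay between 11.39 and 11.69 on all of them, and 1 of these markers, Piwil2, passed the F test. The mean level of 10 round spermatid markers ran, from the lower to the higher sample, from 10.63 to 11.28 in XII-I, 11.41 to 12.06 in II-IV, 12.14 to 12.29 in IV-VI, 12.11 to 12.28 in VII, 11.16 to 11.71 in VIII-IX and 11.72 to 12.05 in IX-XI. XII-I and VIII-IX thus overlapped at the low end, and 4 of the 10 were lower in XII-I and 1 in VIII-IX than in the other 5 groups. Over all 19946 genes these counts were 664 and 859. The XII-I samples differed: the median round spermatid marker lay at -1.56 log2 from its own mean in sample 1 and at -0.5 in sample 2. Of 9 elongating spermatid markers Tnp1 and Tnp2 passed the F test, both highest in VIII-IX, and of 8 spermatogonial markers Stra8 was highest in IX-XI while Sohlh2 and Dmrt1 were lowest in VIII-IX. None of the 9 Sertoli, 5 Leydig, 4 peritubular, 4 endothelial and 3 epididymal markers measured passed the F test (3, 1, 0, 1 and 0 at an unadjusted p under 0.05), although VII sample 2 stood out with Leydig markers 0.89 and macrophage markers 0.71 above their means (medians, log2). Of 5 macrophage markers Adgre1 passed it, lowest in VIII-IX. Alas2, a haem synthesis enzyme of red cell precursors and the 1 blood marker measured of 5, averaged 10.19 ± 0.20 in II-IV, against 7.64 ± 0.40 in VIII-IX (SD, n = 2 each), a 5.84-fold range (limma F test, adjusted p = 0.012). It was higher in XII-I than in the other 5 groups (1.28 log2, limma, adjusted p = 0.029) and than in IX-XI. It was lower in VIII-IX and in IX-XI than in the other groups. In these comparisons Cdk1, Cdc25a, Cdc25c or Wee1 also passed, in the same directions, while Cdk2 passed in VIII-IX in the opposite one. The part of these markers in the results below was not tested.

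**Figure D1:**
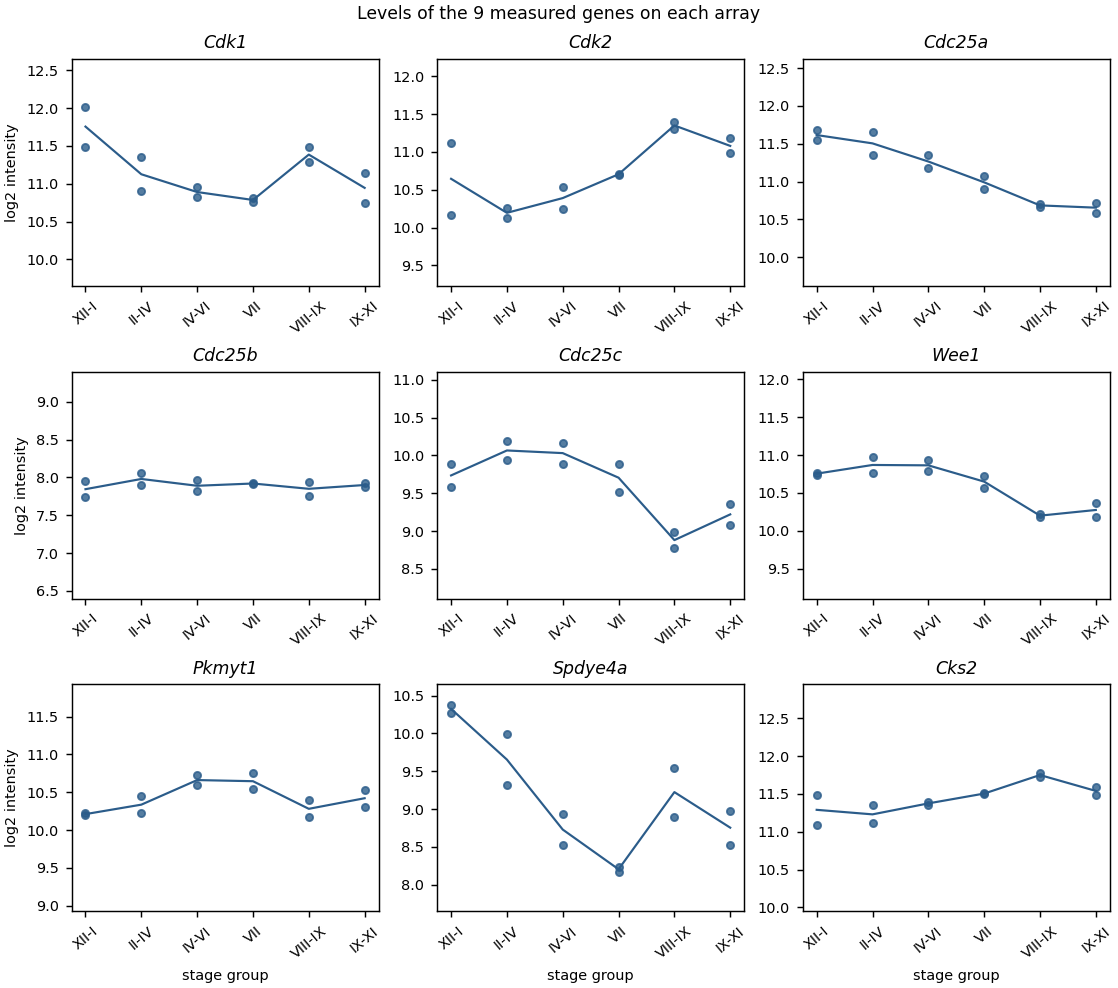
Log2 intensity (vertical axis) of the 9 measured genes in the 6 stage groups (horizontal axis, in cycle order); each point is 1 array and each line joins the group means, and every panel spans the same number of log2 units. Spdye4a ranged over 2.12 log2 units and Cdc25b over 0.13, and Cdk1 and Cdc25a were highest in XII-I while Cdk2 and Cks2 were highest in VIII-IX.

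Across the cycle the regulators did not move together. Cdk1 and Cdc25a were highest in XII-I, Cdc25c and Wee1 were highest in II-IV and lowest in VIII-IX, Cdk2 and Cks2 were highest in VIII-IX, Pkmyt1 was highest in IV-VI, and Cdc25b was nearly flat. Of the 8 genes tested 4, namely Cdk1, Cdc25a, Cdc25c and Wee1, passed limma's F test for any difference among the 6 groups, against 19.9% of all genes tested. The range between the highest and the lowest group mean had a median of 0.82 log2 over the 8 genes and of 0.34 over all genes. None of the 8 lay among the dimmest 30% of all genes. With those left out, 5 of the 8 and 4132 of 13962 genes passed the F test.

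Cdk1, the kinase that drives entry into mitosis and into both meiotic divisions, was highest in XII-I and lowest in VII. On probe set 10369815 it read 12.02 and 11.49 in XII-I, 10.90 and 11.35 in II-IV, 10.82 and 10.96 in IV-VI, 10.81 and 10.76 in VII, 11.29 and 11.48 in VIII-IX, and 11.14 and 10.75 in IX-XI. Both XII-I samples lay above all 10 others, but XII-I sample 2, at 11.49, lay hardly above VIII-IX sample 2, at 11.48. From high to low the groups ran XII-I, VIII-IX, II-IV, IX-XI, IV-VI and VII, and the samples of VIII-IX and II-IV, of II-IV and IX-XI, and of IX-XI and IV-VI overlapped. The range of the group means was 0.97 log2, or 1.96-fold (limma F test, adjusted p = 0.047).

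In XII-I, Cdk1 averaged 11.75 ± 0.38 (SD, n = 2), against 11.03 over the other 5 groups, a difference of 0.73 ± 0.16 log2 (SE) or 1.65-fold (limma, adjusted p = 0.029). Cdk1 was also higher in XII-I than in IX-XI, the stages just before it, which averaged 10.95 ± 0.28, by 0.80 ± 0.21 log2 or 1.75-fold (limma, adjusted p = 0.038). The second high, in VIII-IX, did not pass the test: Cdk1 averaged 11.39 ± 0.13 there, against 10.78 ± 0.04 in VII, a difference of 0.60 ± 0.21 log2 (limma, adjusted p = 0.11). Without XII-I sample 1 the XII-I difference was 0.46 log2 (adjusted p = 0.23, range over all alternatives 0.012 to 0.23), the difference from IX-XI 0.54 log2 and the range 0.70 log2, and none of these 3 values passed its test. The XII-I call was also lost without IV-VI sample 1, VIII-IX sample 1 or IX-XI sample 2, while without XII-I sample 2 the XII-I difference was 0.99 log2. The F test and the IX-XI comparison were each passed in 3 of 12 fits that left out 1 array, namely those without XII-I sample 2 or either II-IV sample.

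Cdk2, which acts in DNA replication and in meiotic prophase, followed another course, low in II-IV and high in VIII-IX. On probe set 10373530 it read 11.12 and 10.17 in XII-I, 10.26 and 10.13 in II-IV, 10.54 and 10.24 in IV-VI, 10.70 and 10.71 in VII, 11.40 and 11.30 in VIII-IX, and 11.18 and 10.98 in IX-XI. The VIII-IX samples lay above all 10 others, and the XII-I samples spanned nearly the whole range of the remaining groups. From high to low the groups ran VIII-IX, IX-XI, VII, XII-I, IV-VI and II-IV; VIII-IX did not overlap IX-XI and IX-XI did not overlap VII, while XII-I overlapped both of its neighbours, and so did IV-VI.

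In VIII-IX, Cdk2 averaged 11.35 ± 0.07 (SD, n = 2), against 10.60 over the other 5 groups, a difference of 0.75 ± 0.19 log2 (SE) or 1.68-fold (limma, adjusted p = 0.048). It was 1 of 8 genes higher there, against 3.53% of all genes tested. Its range of 1.16 log2, or 2.23-fold, missed the F test (adjusted p = 0.051, range over all alternatives 0.005 to 0.22), and the 2 XII-I samples had an SD of 0.67. Without XII-I sample 1 the F test gave adjusted p = 0.005 and without XII-I sample 2 it gave 0.0069, and these were the 2 of 12 leave-outs in which either test of Cdk2 passed.

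Cks2, a small CKS protein that binds the kinase and its phosphorylated substrates, was like Cdk2 highest in VIII-IX and lowest in II-IV, with a smaller range. On probe set 10424779, the brightest of 3, it read 11.49 and 11.09 in XII-I, 11.35 and 11.11 in II-IV, 11.40 and 11.35 in IV-VI, 11.51 and 11.50 in VII, 11.72 and 11.78 in VIII-IX, and 11.59 and 11.49 in IX-XI. The VIII-IX samples again lay above all 10 others, and below them came IX-XI with VII, which it overlapped, then IV-VI, XII-I and II-IV, each overlapping the next. The range was 0.52 log2 (limma F test, adjusted p = 0.1), and VIII-IX averaged 11.75 ± 0.04 (SD, n = 2), against 11.39 over the other 5 groups, a difference of 0.36 ± 0.10 log2 that did not pass (limma, adjusted p = 0.065). The F test passed without XII-I sample 1 (adjusted p = 0.036, range over all alternatives 0.036 to 0.36).

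The other 2 Cks2 probe sets placed VIII-IX highest as well, with wider differences. When all probe sets with 1 symbol were tested, VIII-IX exceeded the other 5 groups by 0.48 log2 on set 10353004 (limma, adjusted p = 0.049) and by 0.54 log2 on set 10405185 (adjusted p = 0.046), against 0.36 on the brightest set (adjusted p = 0.065). Their lowest group was XII-I, whereas the brightest set was lowest in II-IV, and none of the 3 passed the F test (adjusted p = 0.086, 0.083 and 0.1). Closely related copies can share probes, and which copies each set reads was not tested.

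**Figure D2:**
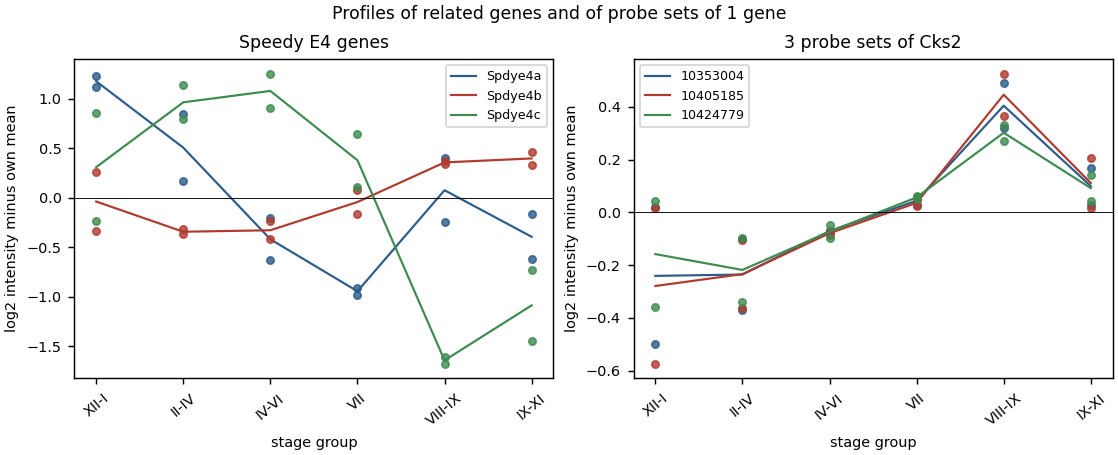
Log2 intensity minus the gene's or probe set's own mean over 12 arrays (vertical axis) by stage group (horizontal axis); points are arrays and lines join group means. At left, Spdye4a was highest in XII-I, Spdye4b in IX-XI and Spdye4c in IV-VI; at right, all 3 probe sets of Cks2 were highest in VIII-IX.

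Of the activating phosphatases, Cdc25a, which acts at the entry into S phase and into mitosis, was highest in XII-I and lower on average in each later group. On probe set 10589420 it read 11.55 and 11.68 in XII-I, 11.35 and 11.66 in II-IV, 11.18 and 11.35 in IV-VI, 11.08 and 10.90 in VII, 10.67 and 10.70 in VIII-IX, and 10.59 and 10.72 in IX-XI. All 4 samples of VIII-IX and IX-XI lay below all 8 others, and the groups kept the order of the cycle, with overlap between XII-I and II-IV and between VIII-IX and IX-XI. II-IV sample 1 and IV-VI sample 2 both read 11.35. The range was 0.96 log2, or 1.94-fold (limma F test, adjusted p = 0.01).

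In XII-I, Cdc25a averaged 11.62 ± 0.10 (SD, n = 2), against 11.02 over the other 5 groups, higher by 0.60 ± 0.10 log2 (SE) or 1.51-fold (limma, adjusted p = 0.021). With Cdk1 it was 1 of 2 genes of the 8 higher in XII-I, against 7.51% of all genes tested. It averaged 10.68 ± 0.02 in VIII-IX, against 11.21 over the other 5 groups, lower by 1.44-fold (-0.52 ± 0.10 log2, limma, adjusted p = 0.02). It averaged 10.66 ± 0.09 in IX-XI, against 11.21 over the other 5 groups, lower by 1.47-fold (-0.56 ± 0.10 log2, limma, adjusted p = 0.022).

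Of the 6 steps around the cycle, Cdc25a passed the test at the one that closes it. It was higher in XII-I than in IX-XI by 0.96 ± 0.12 log2 or 1.94-fold (limma, adjusted p = 0.0078), while none of the other 5 steps between neighbouring groups passed (adjusted p from 0.16 for VIII-IX against VII to 0.95 for IX-XI against VIII-IX). Cdc25a, Cdk1 and Wee1, 3 of the 8 genes, were higher in XII-I than in IX-XI, against 7.33% of all genes tested. The F test of Cdc25a passed without each of the 12 arrays in turn, and each group difference was lost when either sample of that group was left out (adjusted p up to 0.25). The step from IX-XI to XII-I was lost without IX-XI sample 2 (adjusted p = 0.077, range over all alternatives 0.0046 to 0.092).

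Cdc25c, which activates CDK1 at the entry into M phase, was highest in II-IV and IV-VI and lowest in VIII-IX. On probe set 10458195 it read 9.58 and 9.89 in XII-I, 10.19 and 9.94 in II-IV, 9.89 and 10.17 in IV-VI, 9.89 and 9.52 in VII, 8.99 and 8.77 in VIII-IX, and 9.08 and 9.36 in IX-XI. Both VIII-IX samples lay below all 10 others, and both IX-XI samples lay next to them, below the remaining 8. From high to low the groups ran II-IV, IV-VI, XII-I, VII, IX-XI and VIII-IX, with overlap between II-IV and IV-VI and between XII-I and VII, while IV-VI and XII-I met at 9.89. The range was 1.18 log2, or 2.27-fold (limma F test, adjusted p = 0.016).

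In VIII-IX, Cdc25c averaged 8.88 ± 0.15 (SD, n = 2), against 9.75 over the other 5 groups, lower by 1.83-fold (-0.87 ± 0.14 log2, SE, limma, adjusted p = 0.015). Cdc25a, Cdc25c and Wee1, 3 of the 8 genes, were lower in VIII-IX, against 4.31% of all genes tested. The drop fell at the step after stage VII: VIII-IX averaged 8.88 ± 0.15, against 9.70 ± 0.26 in VII, lower by 1.77-fold (-0.82 ± 0.18 log2, limma, adjusted p = 0.047). Cdc25c was the 1 gene of the 8 to pass at that step, against 1.66% of all genes tested, and Wee1 missed it (-0.45 ± 0.11 log2, adjusted p = 0.051). The F test of Cdc25c was lost without VIII-IX sample 2 (adjusted p = 0.051, range over all alternatives 0.013 to 0.1) and the VIII-IX difference without either VIII-IX sample, while the step from VII passed only in the 4 of 12 leave-outs that removed a XII-I or a II-IV sample.

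Cdc25b, the CDC25 phosphatase that acts early in the entry into mitosis and is needed for meiosis in mouse oocytes, showed no change beyond the spread of its samples. On probe set 10476252 it read 7.74 and 7.95 in XII-I, 7.90 and 8.06 in II-IV, 7.96 and 7.82 in IV-VI, 7.91 and 7.93 in VII, 7.76 and 7.94 in VIII-IX, and 7.87 and 7.93 in IX-XI. All readings of Cdc25b lay below every reading of the other measured genes, and how far they stood above background was not tested. All 6 groups overlapped, and the range of their means was 0.13 log2 (limma F test, adjusted p = 0.89), about the size of the pooled SD of 0.10. Its 6 differences from the mean of the other 5 groups lay between -0.06 and 0.10 log2, each with an SE of 0.08.

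Of the inhibitory kinases, Wee1, the nuclear kinase that phosphorylates CDK1 and CDK2, had a profile close to that of Cdc25c. On probe set 10556266 it read 10.77 and 10.74 in XII-I, 10.97 and 10.77 in II-IV, 10.79 and 10.94 in IV-VI, 10.73 and 10.57 in VII, 10.18 and 10.22 in VIII-IX, and 10.18 and 10.37 in IX-XI. The 4 samples of VIII-IX and IX-XI lay below all 8 others, at 10.37 or less against 10.57 or more. From high to low the groups ran II-IV, IV-VI, XII-I, VII, IX-XI and VIII-IX, with overlap between II-IV and IV-VI and between IX-XI and VIII-IX. The range was 0.67 log2, or 1.59-fold (limma F test, adjusted p = 0.014), and it passed without each of the 12 arrays in turn.

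Wee1 averaged 10.20 ± 0.03 in VIII-IX (SD, n = 2), against 10.68 over the other 5 groups, lower by 1.40-fold (-0.49 ± 0.08 log2, SE, limma, adjusted p = 0.018). It averaged 10.28 ± 0.13 in IX-XI, against 10.67 over the other 5 groups, lower by 1.31-fold (-0.39 ± 0.08 log2, limma, adjusted p = 0.039). With Cdc25a it was 1 of 2 genes of the 8 lower in IX-XI, against 1.79% of all genes tested. XII-I averaged 10.75 ± 0.02, higher than IX-XI by 0.48 ± 0.11 log2 or 1.39-fold (limma, adjusted p = 0.025). The VIII-IX difference was lost without either VIII-IX sample, the step from IX-XI to XII-I without any 1 of its 4 samples, and the IX-XI difference without XII-I sample 2, IV-VI sample 2 or any 1 of the 4 samples of VIII-IX and IX-XI (adjusted p up to 0.35).

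Pkmyt1, the membrane-bound inhibitory kinase, which acts on CDK1, did not pass any test. On probe set 10442331 it read 10.22 and 10.20 in XII-I, 10.45 and 10.22 in II-IV, 10.73 and 10.59 in IV-VI, 10.75 and 10.54 in VII, 10.39 and 10.17 in VIII-IX, and 10.31 and 10.53 in IX-XI. The 4 samples of IV-VI and VII lay above all 8 others, though VII sample 2, at 10.54, lay hardly above IX-XI sample 2, at 10.53. Below them IX-XI, II-IV, VIII-IX and XII-I each overlapped the next, in that order of means. The range of the means was 0.45 log2, or 1.37-fold (limma F test, adjusted p = 0.088). Pkmyt1 averaged 10.28 ± 0.15 in VIII-IX, against 10.65 ± 0.15 in VII (SD, n = 2 each), a difference of -0.36 ± 0.13 log2 (SE, limma, adjusted p = 0.12).

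Spdye4a belongs to the Speedy E genes, relatives of Spdya, whose product binds and activates CDK2. It had the widest range of the 9 genes, 2.12 log2 or 4.33-fold, and since it was selected on its XII-I level these values are a description. On probe set 10535426 it read 10.38 and 10.27 in XII-I, 9.32 and 9.99 in II-IV, 8.52 and 8.94 in IV-VI, 8.24 and 8.17 in VII, 8.90 and 9.55 in VIII-IX, and 8.98 and 8.53 in IX-XI. Both XII-I samples lay above all 10 others and both VII samples lay below them.

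From high to low Spdye4a ran XII-I, II-IV, VIII-IX, IX-XI, IV-VI and VII, and the samples of II-IV and VIII-IX, of VIII-IX and IX-XI, and of IX-XI and IV-VI overlapped. XII-I averaged 10.32 ± 0.08 (SD, n = 2), against 8.91 over the other 5 groups, 1.41 log2 or 2.66-fold higher, and 1.57 log2 above IX-XI. The XII-I difference lay between 1.34 and 1.48 log2 over all alternatives, which adds no support, since the gene was selected on its XII-I level on these same arrays. VIII-IX averaged 9.22 ± 0.46, against 8.21 ± 0.05 in VII, 1.01 log2 higher.

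Its paralogs followed other courses. Spdye4c (probe set 10475879) read 8.83 and 9.92 in XII-I, 10.20 and 9.86 in II-IV, 9.97 and 10.32 in IV-VI, 9.71 and 9.18 in VII, 7.46 and 7.39 in VIII-IX, and 7.62 and 8.34 in IX-XI. It was 6.59-fold higher in IV-VI than in VIII-IX (limma F test, adjusted p = 0.011), and VIII-IX differed from the other 5 groups by -1.97 log2 (adjusted p = 0.012). Spdye4b (10527164) was highest in IX-XI and lowest in II-IV, with a range of 0.74 log2 (limma F test, adjusted p = 0.042). Cks1b, the paralog of Cks2, was highest in II-IV and lower in VIII-IX than in the other 5 groups (-0.45 log2, limma, adjusted p = 0.044), where Cks2 was highest. The other paralogs measured, Wee2 and Cks1brt, had low mean levels of 5.74 and 6.88 and did not pass limma's F test (adjusted p = 0.52 and 0.97). Probe sets of the Speedy E4 genes can share probes among copies, which was not tested.

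**Figure D3:**
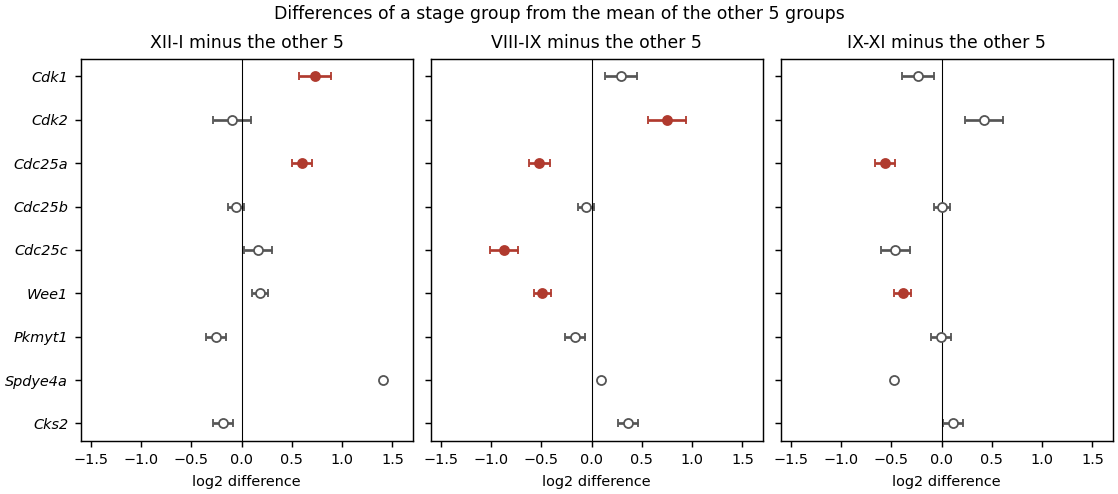
Log2 difference (horizontal axis) of XII-I, VIII-IX and IX-XI from the mean of the other 5 groups, with 1 panel for each of these 3 groups and 1 line for each of the 9 genes; bars are SE, filled red points passed limma's test at an adjusted p under 0.05, and Spdye4a has no bar because it was not tested. In VIII-IX, Cdk2 stood 0.75 log2 above the other groups, and Cdc25a, Cdc25c and Wee1 lay between -0.87 and -0.49.

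The remaining comparisons gave no calls. In limma 0 of the 8 genes, and 0 of all 19946 genes, differed in II-IV, IV-VI or VII from the mean of the other 5 groups. At an unadjusted p under 0.05, 5 of the 8 passed in II-IV, 3 in IV-VI and 2 in VII, as did 3430, 4060 and 3963 of all genes. At the steps from XII-I to II-IV, II-IV to IV-VI, IV-VI to VII and VIII-IX to IX-XI the count was likewise 0 of 19946 genes, with 1, 1, 0 and 0 of the 8 at an unadjusted p under 0.05, as were 1980, 1323, 1183 and 925 of all genes. These counts depended on single arrays in places. Without XII-I sample 2, 3 of the 8 passed in II-IV and 1 in IV-VI, against 6.11% and 6.92% of all genes. Without XII-I sample 1, 1 of the 8 passed in II-IV (1.61% of all genes), and without II-IV sample 1, 1 of the 8 passed in IV-VI (6.57%).

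**Figure D4:**
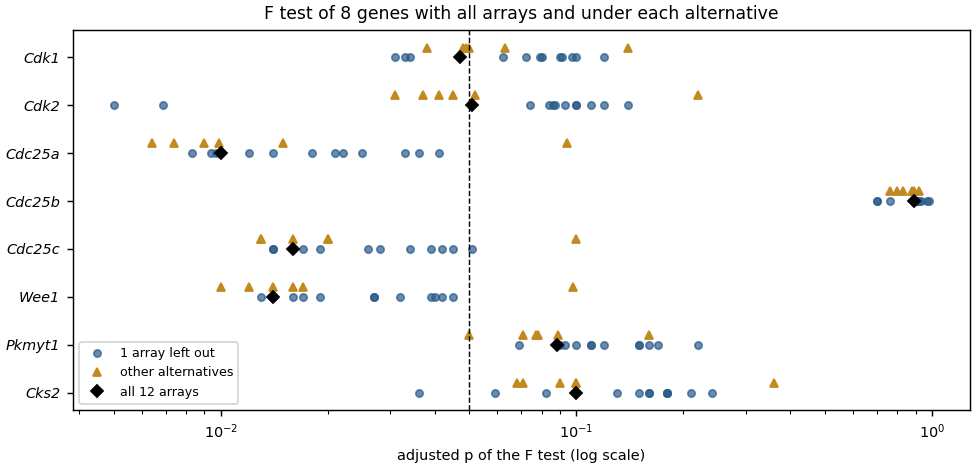
Adjusted p of limma's F test (horizontal axis, log scale) for the 8 tested genes, with all 12 arrays (black diamonds), with 1 array left out (blue circles) and under the other alternatives (gold triangles); the dashed line marks 0.05. All circles of Cdc25a and Wee1 lie below 0.05, those of Cdk1 and Cdk2 lie on both sides of it, and those of Cdc25b and Pkmyt1 lie above it.

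The profiles of the regulators can be compared by the root mean square difference of the 12 values, after each gene was centred on its own mean. The closest pairs among the 9 genes were Cdc25c with Wee1, at 0.20 log2, and Cdc25a with Wee1, at 0.21, so the inhibitory kinase Wee1 and 2 of the phosphatases that oppose it ran nearest to each other. Cdk2 and Cks2 lay 0.28 apart, while Cks2 lay 0.25 from Cdc25b and 0.27 from Pkmyt1. Cdk1 had no near match among the 9 genes, at 0.41 from Cdc25b, 0.42 from Cks2, 0.43 from Cdc25a, 0.44 from Spdye4a and 0.50 from Cdk2. A small difference here also comes from a small range, as for Cdc25b with Pkmyt1, at 0.22.

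Among all other genes, those nearest to Cdk1 by this measure were Lratd1 at 0.06 log2, Xpot at 0.07 and Stil, a centriole duplication gene, at 0.08, all highest in XII-I. Nearest to Cdk2 were Sdr42e1 at 0.07 and Prok2 and Zfp397 at 0.09, all highest in VIII-IX. Nearest to Cdc25a were Tmem39b at 0.08 and Ints11 and Bora at 0.09; Bora encodes the activator of Aurora A that lets it switch on PLK1. Cdc25c lay nearest to Wtip at 0.10 and Dctn3 and Tbc1d25 at 0.11, and Wee1 to Ranbp2, Tekt3 and Entpd5 at 0.07.

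The genes nearest to Pkmyt1 were Pnkd at 0.04, Srm at 0.05 and B4galt7 at 0.06, and to Cks2 they were Spata19 at 0.05, Ccdc84 at 0.06 and Zfp141 at 0.07. Cdc25b lay 0.04 from Itga3, Xkrx and Efs, which were as flat as itself, with ranges of 0.17, 0.16 and 0.10. Spdye4a had no such close neighbour: Rfx8 lay at 0.15 and Plxna2 and Slc2a8 at 0.18, all highest in XII-I. These values describe 12 arrays, and nothing on shared control follows from them.

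Other genes of the pathway were taken from 9 lists with 100 measured genes, of which 37 passed the F test, against 19.9% of all genes. XII-I was the highest group for 15 of the 37, and the others had their high as follows: 7 in II-IV, 4 in IV-VI, 0 in VII, 8 in VIII-IX and 3 in IX-XI. Among the 3973 genes of the whole array past that test, 1266 were highest in XII-I, 520 in II-IV, 659 in IV-VI, 217 in VII, 810 in VIII-IX and 501 in IX-XI. Beside the counts of genes that rose or fell in the lists below, the whole array had 1497 genes (7.51%) higher and 664 lower in XII-I. In VIII-IX it had 705 (3.53%) higher and 859 (4.31%) lower.

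Of 9 cyclins measured, 6 passed the F test, with a median range of 0.80 log2 over the list; 3 rose and 1 fell in XII-I, and 1 rose and 2 fell in VIII-IX. Ccna1, the meiotic A-type cyclin, averaged 12.75 ± 0.04 in XII-I, its high, against 11.19 ± 0.09 in VII, its low (SD, n = 2 each), a 2.94-fold range (limma F test, adjusted p = 0.023). Ccnb3, a B-type cyclin of early meiotic prophase in mouse testis, averaged 8.49 ± 0.29 in VIII-IX, against 6.50 ± 0.16 in IV-VI, a 3.95-fold range (adjusted p = 0.046). Ccne2, a partner of CDK2, averaged 10.19 ± 0.05 in IX-XI, its high, against 8.79 ± 0.25 in XII-I, its low (adjusted p = 0.029), and Ccnd1 ranged 1.74-fold with its high in IV-VI (adjusted p = 0.019).

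Of 17 other cyclin-dependent kinases 6 passed the F test (median range 0.55 log2), and 5 rose in XII-I. Cdk20 ranged 2.15-fold, Cdk7, the catalytic subunit of the CDK-activating kinase, 1.97-fold and Cdk6, a G1 kinase, 1.84-fold, all highest in XII-I (limma F test, adjusted p = 0.044, 0.011 and 0.021). Cdk18 ranged 1.75-fold with its high in VIII-IX (adjusted p = 0.03). Of the 3 genes of the CDK-activating kinase, which phosphorylates the activation loop of CDKs, Cdk7 and its assembly factor Mnat1 passed (median range 0.84 log2), Mnat1 with a range of 0.59 log2 and its high in XII-I (adjusted p = 0.035). The remaining gene, Ccnh, did not pass (limma F test, adjusted p = 0.1) and went the other way, with its high in VII, its low in XII-I and a range of 0.84 log2.

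Of 7 CDK inhibitors measured, 4 passed the F test (median range 0.56 log2), 3 of them highest in VIII-IX. Cdkn2d, which encodes p19-INK4D, was 2.15-fold higher in VIII-IX than in IV-VI, Cdkn2c, which encodes p18-INK4C, 1.73-fold (limma F test, adjusted p = 0.04 and 0.035), and Cdkn1c, which encodes p57-KIP2, ranged 0.58 log2 between the same groups (adjusted p = 0.031). Cdkn1b, which encodes p27-KIP1, ranged 1.28-fold with its high in II-IV (adjusted p = 0.046). In limma's contrasts 1 of the 7 was higher and 1 lower in XII-I than in IX-XI, against 1462 and 924 of all 19946 genes. In VIII-IX 1 was higher than in VII, against 453 of all genes.

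Upstream of CDC25 and WEE1 lie the checkpoint kinases, Polo-like kinase and Aurora A, the 14-3-3 proteins and the ubiquitin ligase that degrades WEE1 and CDC25A. Of 22 such genes 7 passed the F test (median range 0.50 log2), 5 rose in XII-I and 2 fell in VIII-IX. Plk1, which activates CDC25C and marks WEE1 for degradation, averaged 12.33 ± 0.02 in XII-I, against 10.47 ± 0.36 in IX-XI (SD, n = 2 each), a 3.63-fold range (limma F test, adjusted p = 0.014). Aurka averaged 12.08 ± 0.10 in XII-I, against 10.25 ± 0.02 in VII, a 3.57-fold range (adjusted p = 0.023), and Bora was 1.84-fold higher in II-IV than in IX-XI (adjusted p = 0.011). Chek1, the checkpoint kinase that inhibits CDC25 proteins, averaged 10.08 ± 0.01 in IV-VI, against 8.82 ± 0.22 in VIII-IX, a 2.40-fold range (adjusted p = 0.023), with its low in the same group as Cdc25c and Wee1.

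PP2A with a B55 subunit reverses CDK1 phosphorylation, and Greatwall, encoded by Mastl, turns it off in M phase. Of 9 genes of this list 2 passed the F test (median range 0.43 log2). Mastl averaged 9.94 ± 0.37 in VIII-IX, against 8.16 ± 0.71 in XII-I (SD, n = 2 each), a 3.42-fold range (limma F test, adjusted p = 0.033), so its low fell where Cdk1 was highest. Ppp2r2d, a B55 subunit, was 1.56-fold higher in II-IV than in VIII-IX (adjusted p = 0.014).

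Of 21 activators, repressors and partner proteins that regulate cell cycle genes through E2F and CHR elements, 7 passed the F test (median range 0.40 log2). In XII-I 3 were higher and 1 was lower. Foxm1, a factor of M phase genes, ranged 1.87-fold with its high in XII-I and its low in IX-XI (limma F test, adjusted p = 0.014), and E2f8, a repressor, ranged 1.88-fold between XII-I and VII, its low (adjusted p = 0.034). E2f5, of the repressor class of E2F factors, averaged 10.01 ± 0.18 in IV-VI, against 8.58 ± 0.32 in VIII-IX (SD, n = 2 each), a 2.69-fold range (adjusted p = 0.018). Mybl2, or B-Myb, was 2.05-fold higher in II-IV than in VIII-IX (adjusted p = 0.04).

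**Figure D5:**
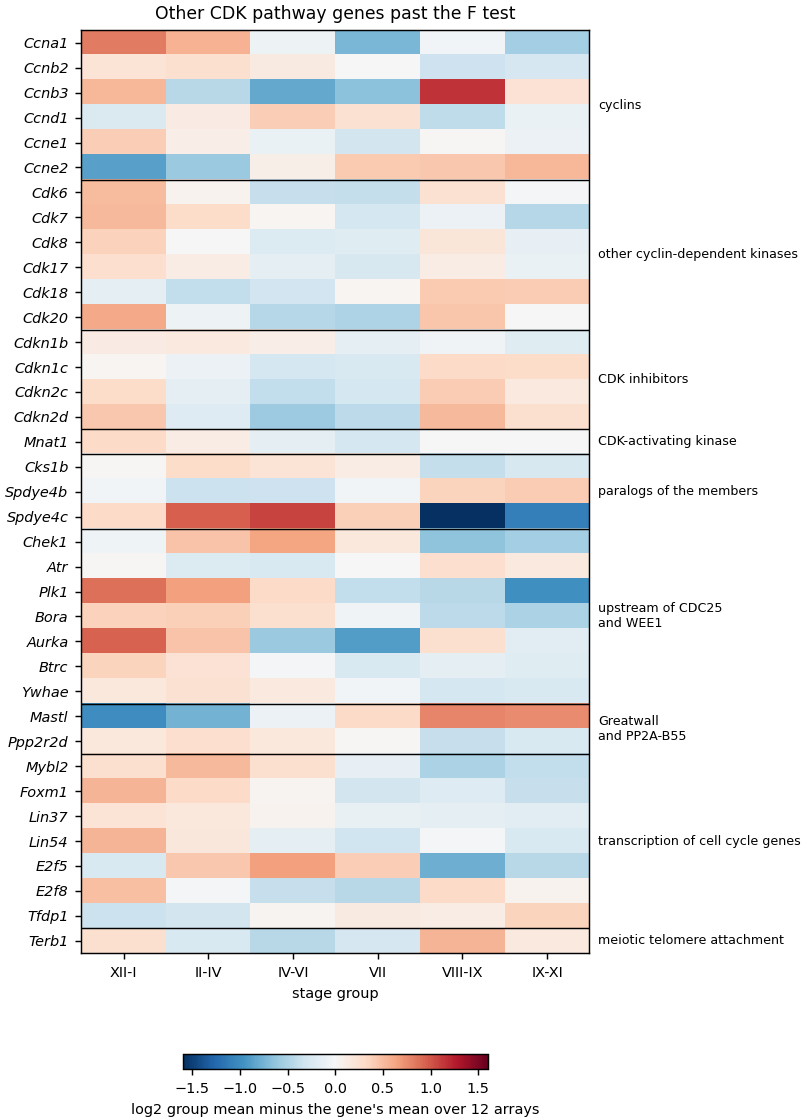
Group mean minus the gene's own mean over 12 arrays, in log2 (color), for the 37 other pathway genes past limma's F test (vertical axis, by list) in the 6 stage groups (horizontal axis). Plk1, Aurka and Ccna1 were highest in XII-I, Ccnb3 and Mastl in VIII-IX, and Spdye4c, highest in IV-VI, had the lowest value shown, in VIII-IX.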

How the data were processed

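The authors deposited intensities for each probe set in 1 table, on a linear scale and made with RMA per the submitters' processing notes (version not given in the sources used). The deposited intensities lay between 24.97 and 21760 and were transformed to log2, with nothing added. Of 28853 probe sets, 21797 carried 1 gene symbol in the array annotation, 1613 several and 5443 none listed, and for 999 genes with several sets the brightest was kept, which left 19946 genes. The 12 arrays were fitted together with 6 group means in limma 3.58.1 and R 4.3.3 (lmFit and eBayes, 6 residual degrees of freedom), and each test was adjusted by Benjamini-Hochberg over the 19946 genes, with 0.05 as the threshold. Tests were the F test, contrasts of a group with the other 5 as their mean, and contrasts of a group with its predecessor in the cycle; the script was tested on simulated data. Overlap means that the ranges of the samples of the groups cross.

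The genes, the lists, the alternatives and the rule for naming genes were chosen with earlier results of these data known. All 10 genes are named; of each pathway list, up to 4 genes past the F test with the widest range, or all where 5 or fewer passed; and for each gene the 3 others with the most similar profile, predicted genes and receptor families passed over. Wee2, Cks1brt and Ccnh are named although they did not pass. Of the listed genes, Ccnb1, Cdkn1a, Spdyb and Ccdc155 had no measured set of that name. Promoter sequences came from RefSeq (GRCm38.p6); Python 3.11.15 searched them.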

Additional observations from a re-analysis of the deposited data

How the results depend on the processing

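None of the differences that passed limma's test in the 8 genes changed its direction in any of the 12 fits that left out 1 array or in any of 6 other alternatives. The counts did change. With sample 2 of VIII-IX and sample 2 of IX-XI both removed, 0 of the 8 genes passed in any test, and 19 of all genes passed the F test, 36 differed in VIII-IX, and 0 in XII-I, in IX-XI, from IX-XI to XII-I and from VII to VIII-IX. This alternative leaves 1 sample in 2 of the groups, which are assumed to vary like the others. With array quality weights, 1 of the 8 genes passed in XII-I, 3 in IV-VI, 1 in VIII-IX and 0 from VII to VIII-IX, and 552, 3034 (15.2%), 386, 2428 and 11 of all genes in XII-I, in IV-VI, in VIII-IX, in IX-XI and from VII to VIII-IX. With the sample number as a replicate block, 1 of the 8 passed in II-IV, with 749 of all genes (3.76%), and 0 from VII to VIII-IX, and the F test of Cdk1 was lost (adjusted p = 0.063) while that of Cdk2 passed (adjusted p = 0.031). The block gave 1166 genes in IX-XI and 260 from VII to VIII-IX. With the quantile step repeated, or without the dimmest 30% of genes, 2 of the 8 passed from VII to VIII-IX, and in the second case 1199 of all genes.

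With 1 array left out in turn, the number of the 8 genes past the test ran from 2 to 5 in the F test, 0 to 2 in XII-I, 0 to 3 in II-IV, 0 to 1 in IV-VI, 0 to 5 in VIII-IX, 0 to 3 in IX-XI, 0 to 3 from IX-XI to XII-I and 0 to 3 from VII to VIII-IX. Over all genes the numbers ran from 1522 to 4269 in the F test, 0 to 3276 in XII-I, 0 to 2711 in VIII-IX, 0 to 1265 in IX-XI, 11 to 2771 from IX-XI to XII-I and 0 to 1678 from VII to VIII-IX. The cause of these changes was not tested. The differences of sample 1 minus sample 2 correlated at -0.35 to 0.54 between the 15 pairs of groups, 8 of them under 0.1. Whether the sample numbers pair the samples cannot be told from these values, and the labels do not say. With 2 samples in each group, no gene could be examined for a single outlying sample within its group, and no result met the rules for a closer look.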

Other observations

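The genes that attach meiotic telomeres to the nuclear envelope, where CDK2 and Speedy A act in mice, made up a list of 8 measured genes. Of these, 1 passed limma's F test (4 at an unadjusted p under 0.05), a share below the 19.9% of all genes, and the median range of the list was 0.54 log2, against 0.34 over all genes. Terb1, which links the telomere to the membrane complex, averaged 10.12 ± 0.03 in VIII-IX, against 9.14 ± 0.03 in IV-VI (SD, n = 2 each), a 1.97-fold range (limma F test, adjusted p = 0.025). In XII-I, 2 of the 8 were lower than in the other 5 groups, as were 664 of all 19946 genes.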
